A study of Mus musculus with 4 samples.

Results

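This account covers 10 genes that mark astrocytes or are strongly expressed by them: Gfap, Aqp4, Slc1a2, Slc1a3, Gja1, Glul, Apoe, Clu, Mt1 and Mt3. The members were all probe sets whose single gene symbol in the platform's annotation table is one of these names. This gave 15 of the 12488 probe sets on the array, for 9 of the 10 genes and of 8252 genes with a probe set of their own. Slc1a3, which encodes the glutamate transporter GLAST, had no probe set under its own name and is not analysed here. Gfap, Aqp4, Gja1, Glul, Apoe and Clu had a pair of probe sets each, and Slc1a2, Mt1 and Mt3 had a single one.

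The RNA came from visual cortex of wild-type C57Bl6 mice that were reared in the dark from birth, had 1 eye removed at postnatal day 42 and then spent 4 days in a normal light-dark cycle until postnatal day 46. All groups share the dark rearing, the enucleation and the late light. Deprived cortex lay contralateral to the removed eye and non-deprived cortex ipsilateral to it, so in both groups the tissue comes from operated animals and no group kept both eyes. The 5 mice were pooled within each side into 2 deprived and 2 non-deprived samples, each measured on 1 single-colour array, and the sources used here do not say how the mice were divided. P-values therefore rest on the spread between these arrays, which may be partly technical. The reported fit treats the 4 arrays as independent, although both sides were drawn from these 5 mice. For each probe set the fit also draws on the spread of other probe sets of like brightness.

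Astrocytes are the glial cells that clear glutamate and potassium from around synapses, supply neurons with glutamine and lipoproteins, and line the blood vessels with their endfeet. Slc1a2 and Slc1a3 take up glutamate, and Glul turns it into glutamine. Gja1 joins astrocytes through gap junctions, Aqp4 carries water at the endfeet, and Gfap forms the filaments that thicken when astrocytes react to injury. Apoe and Clu are the apolipoproteins that astrocytes secrete, and Mt1 and Mt3 are metallothioneins, small proteins that bind zinc and copper. Neither Apoe, Clu, Glul nor the metallothioneins belong to astrocytes alone.

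Values are MAS5 signals, in arbitrary units, with each array scaled to the same trimmed mean. Differences are deprived minus non-deprived on the log2(signal + 60.6) scale, and folds are taken from these differences. This scale understates changes of dim probe sets. The limma fit ran over 7458 probe sets with a mean signal of at least 142.9, and adjusted p-values are over all of these. Median signals were 189.9 to 246 across the 4 arrays. In bulk tissue, fewer cells of a type and less RNA per cell cannot be told apart. Of 10 defining astrocyte markers, 7 had a probe set bright enough to test, and Slc1a3, Aldh1l1 and Sox9 had none under their own name.

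No astrocyte gene passed the test between deprived and non-deprived cortex. The glutamate transporter gene Slc1a2 had the largest difference, 2.00-fold lower, and the other 13 tested probe sets lay between -0.15 and 0.34 (log2). In limma 0 of the 14 tested astrocyte probe sets passed an adjusted p of 0.05, where 0.107% of all tested probe sets were called lower and 0% higher. Slc1a2 alone had an unadjusted p under 0.05, in the lower direction, where 3.66% of all tested probe sets did so and 1.77% in the higher one. The difference was below 0 at 5 probe sets and above 0 at 9. On the arrays themselves, the groups overlapped at 11 of the 14. Both deprived arrays lay below both non-deprived ones at 1 probe set, of Slc1a2, against 17.1% of all tested probe sets. Both lay above at 2, of Clu and Mt1, against 15.1% of all. A 1.5-fold difference with one sign throughout the 4 deprived and non-deprived pairs was met by 0 of the 14, against 1.58% lower and 0.322% higher over all tested probe sets.

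Per gene, taking the brightest probe set, 6 genes were higher and 3 lower in deprived cortex. The median difference was 0.07 (log2) and the mean -0.02, of opposite sign, with Slc1a2 far below the others. Over all tested probe sets the median was 0.0015. The spread within groups was below the median of all tested probe sets, 0.24 (log2), at 10 of the 14. The fit's 95% intervals lay between a 2-fold fall and a 2-fold rise at 12 of the 14 probe sets and included no change at 13. The 2 arrays per group limit the precision to standard errors of 0.17 to 0.38 (log2).

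**Figure D1:**
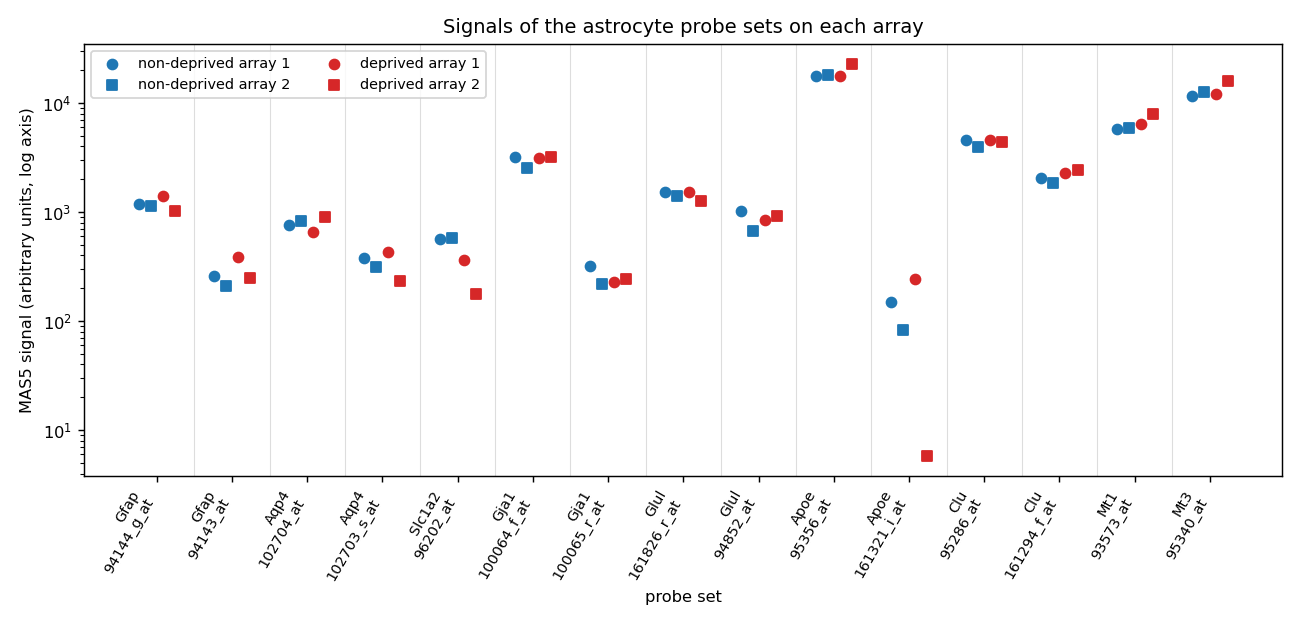
MAS5 signals (arbitrary units, log axis) of the 15 astrocyte probe sets on each of the 4 arrays, blue for non-deprived and red for deprived, circles for replicate 1 and squares for replicate 2. Only Slc1a2 has both deprived arrays clearly below the non-deprived ones, at 362 and 178 against 570.2 and 576, and the dim Apoe probe set ranges from 5.8 to 241.

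**Figure D2:**
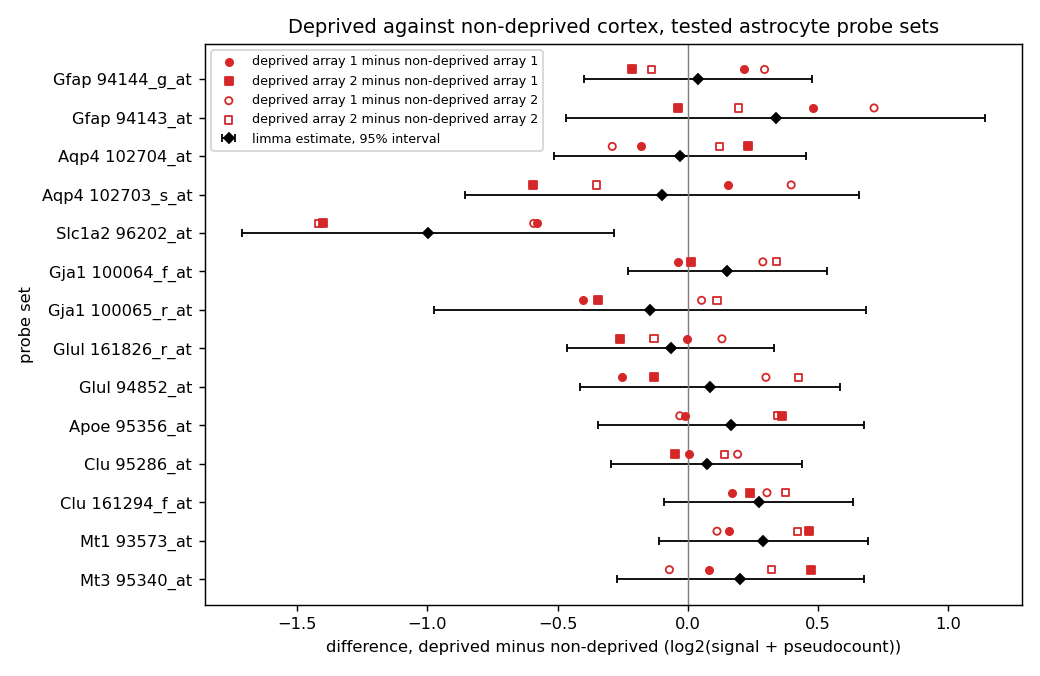
Differences between deprived and non-deprived cortex (log2(signal + pseudocount)) for the 14 tested astrocyte probe sets: black diamonds are limma estimates with 95% intervals, and red symbols are the 4 pairs of single arrays. The 4 pairs fall on both sides of 0 at 11 of the 14, and Slc1a2 is the 1 probe set whose interval lies wholly below 0.

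The filament gene Gfap overlapped between the groups at both of its probe sets. Its brighter probe set, 94144_g_at, gave signals of 1394 and 1017 in deprived and 1191 and 1126 in non-deprived cortex, so the deprived arrays were both the highest and the lowest. The difference was 0.04 ± 0.20 (SE, n = 2 per group, limma adjusted p = 0.999), with a 95% interval from 0.758-fold to 1.39-fold. The dimmer probe set, 94143_at, read 384 and 249.6 in deprived and 258 and 210.4 in non-deprived cortex, a difference of 0.34 ± 0.37 (adjusted p = 0.999). Deprived array 1 was the highest of the 4 at both Gfap probe sets. Without it the brighter one gave -0.18 and the dimmer one 0.08. Without deprived array 2 they gave 0.26 and 0.60.

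The gap junction gene Gja1, which encodes the main connexin of astrocytes, had differences of opposite sign at its probe sets. The bright 100064_f_at read 3105 and 3220.2 in deprived and 3191 and 2533 in non-deprived cortex. Here non-deprived array 2 stood below the other 3, and the difference was 0.15 ± 0.17 (SE, adjusted p = 0.999). The dim 100065_r_at read 229 and 241 in deprived and 322 and 218 in non-deprived cortex, a difference of -0.15 ± 0.38. A letter before "_at", as in these names, marks probe sets that did not meet all of the maker's usual selection rules or can match related sequences. The water channel gene Aqp4 read 659 and 897 in deprived and 755 and 819 in non-deprived cortex at 102704_at, with the deprived arrays at both extremes. Its difference was -0.03 ± 0.22, and that of the dimmer 102703_s_at was -0.10 ± 0.35, from signals of 431 and 232 against 382 and 313. At 102704_at deprived array 1 was the lowest, and at 102703_s_at it was the highest, so the Aqp4 probe sets did not order the arrays alike.

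Of 14 partner genes of gap junctions and of water and potassium channels, 7 were tested and 0 passed in either direction. Their median was -0.11 (log2), with 4 lower and 3 higher. It was -0.58 without non-deprived array 2, -0.31 without deprived array 1 and -0.19 without non-deprived array 1. The lowest p belonged to Dtna, whose product dystrobrevin is part of the dystrophin complex that holds Aqp4 at the endfeet. Dtna read 670.5 and 515 in deprived and 962 and 847 in non-deprived cortex, without overlap. The difference was -0.57 ± 0.22 (SE, unadjusted p = 0.025, limma adjusted p = 0.80), and its dimmer probe set gave -0.29 ± 0.54. Gja5 and the chloride channel gene Clcn2 gave -0.56 ± 0.43 and -0.62 ± 0.42.

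Slc1a2 encodes GLT-1, the main glutamate transporter of forebrain astrocytes, and was the member with the largest difference. Its probe set, 96202_at, read 362 and 178 in deprived and 570.2 and 576 in non-deprived cortex, each in the order of the replicate numbers. The non-deprived arrays were nearly equal, with a mean of 573 ± 4.36 (SD, n = 2), whereas the deprived ones lay far apart, at 269.96 ± 130.1 (SD, n = 2). With 60.6 added to the signals, Slc1a2 was 2.00-fold lower in deprived cortex, -0.997 ± 0.33 (SE, log2), with a 95% interval from 0.305-fold to 0.822-fold. In limma the unadjusted p was 0.0104, rank 133 of the 7458 tested, and the adjusted p 0.58. The 4 pairs of arrays gave -0.58, -0.59, -1.40 and -1.42, the larger ones with deprived array 2.

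Deprived array 2 thus set much of the size. Without it the Slc1a2 difference was -0.59, and without deprived array 1 it was -1.41. Either fit leaves 1 deprived array, so the spread comes from the non-deprived arrays and from other probe sets. The gene had no other probe set under its own name, so the difference could not be set beside a further measurement of the transcript. Control probe sets at the 5′ end of actin read less, relative to those at its 3′ end, in deprived cortex (0.544 and 0.463) than in non-deprived cortex (0.638 and 0.632), and least with deprived array 2. For Gapdh the same ratios, which fall as RNA degrades, were 0.745 and 0.689 against 0.875 and 1.07. For the transferrin receptor they were 0.269 and 0.474 against 0.270 and 0.0758, so the groups overlapped and deprived array 2 was the highest. Its 5′ control probe set was dim, at 57.3 and 54.7 in deprived and 76.5 and 18.8 in non-deprived cortex. Neuronal markers were also lower in deprived cortex at 8 of 9 tested genes, where 3711 of all 7458 tested probe sets were lower. Their median was -0.25, and 0 passed the adjusted threshold. Both deprived arrays lay below both non-deprived ones at 4 of the 9, against 17.1% of all tested probe sets. Their summed signals were 38946 and 46641 against 46363 and 50114, so the sums overlapped. Rbfox3 and Slc17a7 had no probe set of their own. The part of the end ratios or of the neuronal markers in the Slc1a2 result was not tested.

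Glul, the glutamine synthetase gene whose product uses the glutamate taken up, had differences near 0. Its 161826_r_at probe set read 1535 and 1271 in deprived and 1537 and 1397 in non-deprived cortex, a difference of -0.07 ± 0.18 (SE, adjusted p = 0.999). The probe set 94852_at read 845 and 927 in deprived and 1019.6 and 675 in non-deprived cortex, a difference of 0.09 ± 0.23. In both cases the groups overlapped, and for 94852_at the non-deprived arrays were both extremes. Whether Slc1a2 differed from Glul in its response was not tested.

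Of 19 other genes for handling glutamate, glycine and GABA, 7 were tested and 0 passed in either direction. Their median was 0.07, with 3 lower and 4 higher. It turned to -0.10 without non-deprived array 2 and to -0.03 without non-deprived array 1, and was 0.12 without deprived array 2 and 0.02 without deprived array 1. Slc1a1, the neuronal glutamate transporter, gave 0.27 ± 0.32 (SE), the glycine transporter gene Slc6a9 -0.12 ± 0.17 and the mitochondrial aminotransferase gene Got2 -0.11 ± 0.19, each with an adjusted p of 0.999. The 7 differences ran from -0.12 to 0.27, and whether Slc1a2 differed from them was not tested.

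The apolipoprotein genes were bright on every array. Apoe, the main lipid carrier of brain, read 17689.7 and 22959.6 in deprived and 17849 and 18079 in non-deprived cortex at 95356_at. Deprived array 2 was high, and the other 3 arrays lay within a narrow band. The difference was 0.17 ± 0.23 (SE, adjusted p = 0.999), or -0.02 without deprived array 2. The other Apoe probe set, 161321_i_at, read 241 and 5.8 in deprived and 149 and 83.5 in non-deprived cortex. It was too dim to test.

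Clu encodes clusterin, also called apolipoprotein J. Its bright probe set, 95286_at, read 4557 and 4395 in deprived and 4545 and 3985 in non-deprived cortex, a difference of 0.07 ± 0.17 (SE). At 161294_f_at the signals were 2303 and 2421 in deprived and 2041 and 1855 in non-deprived cortex, without overlap. The fold was 1.21 (0.27 ± 0.17, unadjusted p = 0.128, limma adjusted p = 0.987), and the 4 pairs ran from 0.17 to 0.37. The brighter Clu probe set gave pairs from -0.05 to 0.19, so the gap between groups was not seen at both.

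Of 17 genes for lipoprotein handling, 10 were tested, of which 9 were higher and 1 lower in deprived cortex. The median was 0.16, and 0 passed in either direction, with 0 at an unadjusted p under 0.05. Npc1, which moves cholesterol out of lysosomes, gave 0.29 ± 0.20 (SE), Pltp, a phospholipid transfer protein gene, 0.25 ± 0.18, and Apod, another glial apolipoprotein gene, 0.39 ± 0.37. The list's median was -0.01 without non-deprived array 2, 0.32 without non-deprived array 1 and 0.11 without deprived array 2.

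The metallothionein genes showed small differences in the same direction. Mt1, induced by zinc and by glucocorticoids, read 6402 and 7938 in deprived and 5729 and 5921 in non-deprived cortex. The groups did not overlap, and the fold was 1.22 (0.29 ± 0.18, SE), with an unadjusted p of 0.142 and a limma adjusted p of 0.991. Mt2, a close paralog that is not among the 10 genes, read 8786 and 9410.3 against 7085 and 7547, also without overlap, at 0.31 ± 0.18 (adjusted p = 0.984). Mt3, the metallothionein of brain, read 12118 and 15937 in deprived and 11464 and 12734 in non-deprived cortex, a difference of 0.20 ± 0.22 (adjusted p = 0.999). Its groups overlapped, since deprived array 1 lay below non-deprived array 2. Without deprived array 2 the difference was 0.14 for Mt1 and 0.0042 for Mt3, and without deprived array 1 it was 0.44 and 0.40. Whether the probe sets of Mt1 and Mt2 hybridise to each other's transcripts was not tested.

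Mt4, Mt3, Mt2 and Mt1 are neighbours in this order on mouse chromosome 8 in the RefSeq gene table. The promoter windows of Mt1, Mt2 and Mt3 are shown because these genes lie side by side and had differences of the same sign, none of which passed the test. Each window runs from 250 bases before to 50 after the gene's start, and comes from RefSeq on build GRCm38.p6, plus strand. The windows are chr8:94178839-94179138 for Mt1, chr8:94172368-94172667 for Mt2 and chr8:94152357-94152656 for Mt3. Capitals mark the core of the metal response element, to which the zinc-sensing factor MTF1 binds, searched as TGCACNC or TGCGCNC on both strands.
Mt1: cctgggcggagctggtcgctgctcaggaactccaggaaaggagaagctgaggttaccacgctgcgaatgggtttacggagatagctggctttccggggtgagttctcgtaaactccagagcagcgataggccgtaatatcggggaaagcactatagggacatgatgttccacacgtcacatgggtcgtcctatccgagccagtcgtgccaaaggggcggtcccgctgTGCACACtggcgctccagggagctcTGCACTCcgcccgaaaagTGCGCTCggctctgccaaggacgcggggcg
Mt2: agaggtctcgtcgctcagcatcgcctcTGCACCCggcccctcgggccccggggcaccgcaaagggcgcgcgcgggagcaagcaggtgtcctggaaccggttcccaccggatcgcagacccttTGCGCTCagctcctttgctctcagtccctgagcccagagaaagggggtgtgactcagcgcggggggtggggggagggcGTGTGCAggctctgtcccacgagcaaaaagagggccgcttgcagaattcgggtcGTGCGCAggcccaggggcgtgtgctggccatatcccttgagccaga
Mt3: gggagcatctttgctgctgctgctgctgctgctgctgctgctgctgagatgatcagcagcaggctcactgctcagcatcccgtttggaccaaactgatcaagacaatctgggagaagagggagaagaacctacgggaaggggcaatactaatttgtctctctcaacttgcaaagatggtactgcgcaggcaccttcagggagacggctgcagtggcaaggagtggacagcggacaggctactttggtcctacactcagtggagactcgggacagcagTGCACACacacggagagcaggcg

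Mt1 held 3 matches, Mt2 4 and Mt3 1, and no matches within a window overlapped. Of all 32851 RefSeq promoter windows of this length, 25.7% held at least 1 match and 1.97% at least 3. Among the other members with a window that was searched, Glul held 1 match, and Gfap, Slc1a2, Slc1a3, Gja1 and Apoe held 0. A match is a description of the sequence, and its use in this tissue was not measured.

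Bright probe sets as a group lay at different levels on the 4 arrays. Over the brightest 5% of tested probe sets, 373 with a mean signal of at least 3837, deprived array 2 lay 0.21 (log2) above the mean of the other 3 and deprived array 1 0.18 below it. Over the other 7085 the medians of the 4 arrays lay between -0.04 and 0.04. The bright set includes 1 probe set each of Apoe, Clu, Mt1 and Mt3, and deprived array 2 was the highest for 66.5% of its members, among them Apoe, Mt1 and Mt3. Deprived array 1 was the lowest of the 4 for Apoe, but not for Mt1 or Mt3, and the highest for Clu 95286_at. The part of this shift in the differences of these genes was not tested beyond the other scaling given next.

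Quantile normalization removes such shifts by construction. After it Mt1 read 7021 and 7206 in deprived and 6002.5 and 5833 in non-deprived cortex, and the Mt1 difference was 0.26 ± 0.09 (SE, unadjusted p = 0.0216, limma adjusted p = 0.687). Mt3 then read 13772 and 14112 against 11856 and 12914, and Apoe 20036 and 20401 against 18973 and 17064. Their differences were 0.17 ± 0.08 each (adjusted p = 0.80), and neither overlapped any more. In all, both deprived arrays were above both non-deprived ones at 5 of the 14 astrocyte probe sets after quantile normalization, against 18.1% of all tested probe sets, and below at 1, against 16.9%. The 5 were of Gfap (94143_at), Apoe, Clu (161294_f_at), Mt1 and Mt3, and 0 of the 14 passed the adjusted threshold.

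**Figure D3:**
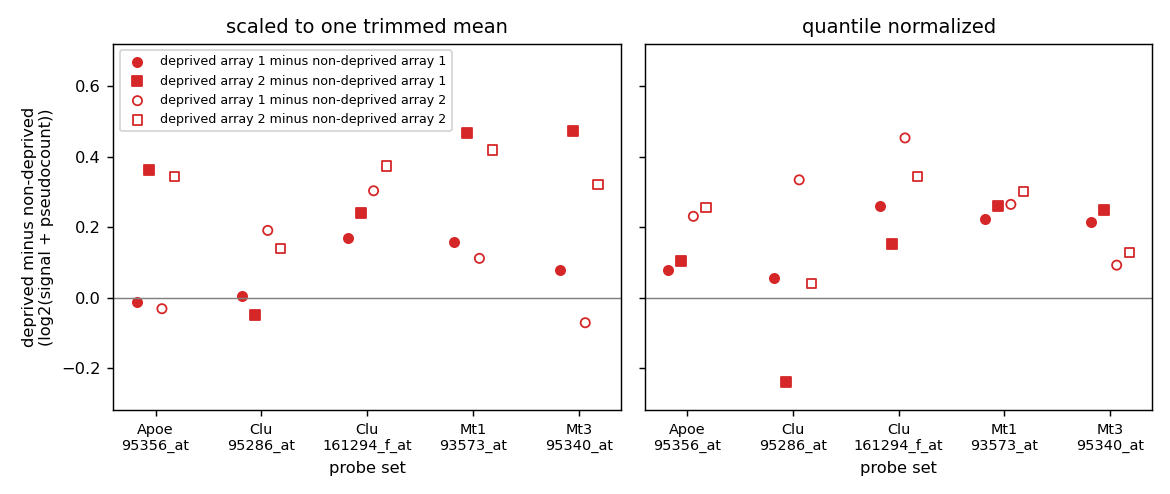
Differences between deprived and non-deprived arrays (log2(signal + pseudocount)) in the 4 pairs for probe sets of Apoe, Clu, Mt1 and Mt3, with arrays scaled to one trimmed mean on the left and quantile normalized on the right. Under the first scaling the squares of deprived array 2 are high for Apoe, Mt1 and Mt3, and after quantile normalization all 4 pairs of these genes lie above 0.

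Among 22 genes for metal handling and oxidative defence, 18 were tested, with 9 higher, 9 lower and a median of 0.04. In limma 0 passed. Tfrc, the transferrin receptor gene for iron uptake, read 1737 and 2027 in deprived and 2648 and 4286 in non-deprived cortex, without overlap. Its difference was -0.82 ± 0.22 (SE, unadjusted p = 0.00285, adjusted p = 0.38). Sod1, the cytosolic superoxide dismutase gene, gave 0.35 ± 0.18. Mtf1, which encodes the MTF1 factor named above, read 115 and 212 in deprived and 293 and 299 in non-deprived cortex. The Mtf1 groups did not overlap, and the difference was -0.70 ± 0.42 (limma adjusted p = 0.984). The list's median was 0.10 without non-deprived array 1, 0.03 without deprived array 1 and 0.07 without deprived array 2.

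Other astrocyte genes differed in both directions. Of 24 further identity genes, 17 were tested, 10 lower and 7 higher, with a median of -0.05 and 0 past the threshold. The median was 0.06 without deprived array 1, -0.17 without deprived array 2 and -0.08 without either non-deprived array. Atp1b2, a glial sodium pump subunit gene, read 612 and 439 in deprived and 737 and 819 in non-deprived cortex, a difference of -0.53 ± 0.24 (SE, unadjusted p = 0.046, adjusted p = 0.91). Ndrg2, an astrocyte-enriched gene, was higher at both tested probe sets, 0.33 ± 0.16 and 0.52 ± 0.24, and the groups did not overlap at either. Gjb6, the other connexin gene that joins astrocytes together with Gja1, gave -0.38 ± 0.26 at its brightest probe set and 0.25 ± 0.43 at the other tested one.

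Genes that rise in reactive astrocytes also differed in both directions. Of 24 listed, 9 were bright enough to test, 4 lower and 5 higher. Their median was 0.07 and their mean -0.01, and 0 passed. The list's median was -0.24 without deprived array 1, 0.23 without deprived array 2 and 0.04 without non-deprived array 2. S1pr3, a sphingosine-1-phosphate receptor gene, had the lowest p, with 505 and 643 in deprived and 936 and 1198 in non-deprived cortex, -0.83 ± 0.22 (SE, unadjusted p = 0.00319, adjusted p = 0.40). Lcn2 and Timp1, often used as markers of reactive glia, gave 0.43 ± 0.33 and -0.29 ± 0.20. Cd44, Osmr, Gbp2, Cp, Socs3, Emp1, Ptx3, Cxcl10 and Tnc were on the array but too dim to test.

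**Figure D4:**
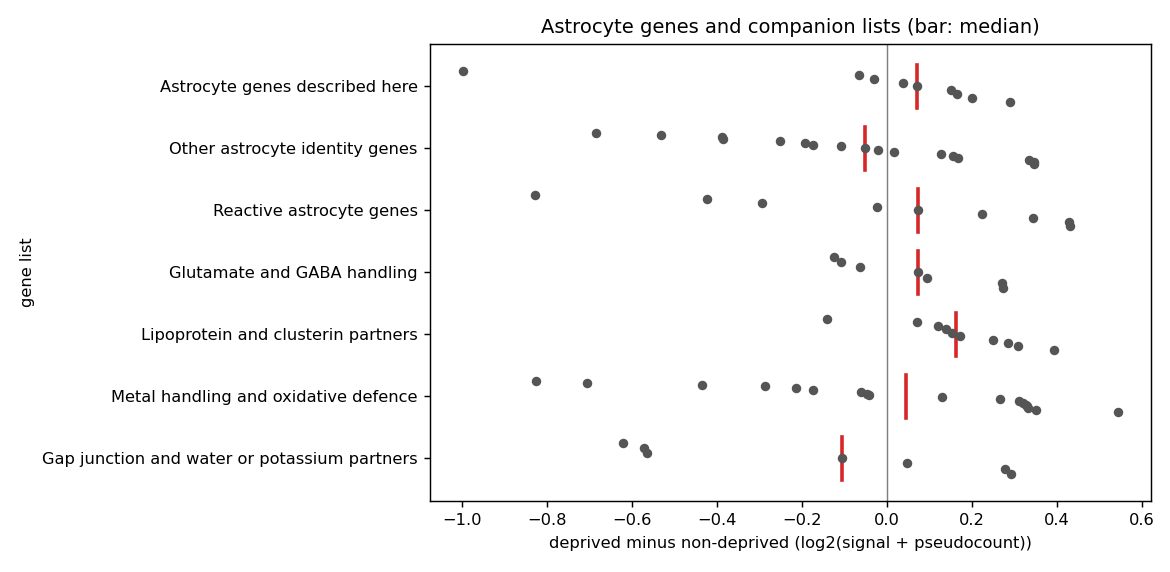
Differences between deprived and non-deprived cortex (log2(signal + pseudocount)) of each tested gene at its brightest probe set, for the astrocyte genes described here and 6 companion lists, with red bars for the medians. The medians lie between -0.11 and 0.16, and Slc1a2 is the lowest point, at -0.997.

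Summed over the brightest probe sets of the 7 tested astrocyte markers, the signal was 13406 and 15467 on the deprived and 15292 and 14233 on the non-deprived arrays, so the groups overlapped. The same sum for 5 oligodendrocyte markers was 13307 and 11973 against 10934 and 9897, higher on both deprived arrays, with a median of 0.40, although 3 further probe sets of Mobp gave -0.14, -0.59 and -0.64. Microglial and vascular markers had medians of -0.01 and 0.05 over 5 and 4 tested genes. Among the microglial ones, a dimmer probe set of Csf1r gave -0.83 ± 0.30 (SE, limma adjusted p = 0.685), against 0.10 at its brighter one. In these lists 0 genes passed the adjusted threshold.

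The probe sets most like the members with the widest range over the arrays were sought among 6708 tested probe sets of single genes, by the root mean square difference of mean-centred log2 values over the 4 arrays. For Slc1a2, with a range of 1.42, they were those of Hic1, Slc12a5 and Timd2, at 0.072 to 0.084. For Mt3, with a range of 0.47, they were those of Ndufa9, Rps24 and Eif1b, at 0.017 to 0.019. For Mt1, also with a range of 0.47, they were those of Ctnnd2, Prkacb and Capza2, at 0.012 to 0.018. This likeness is a description over 4 arrays.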

How the data were processed

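Visual cortex RNA (about 10 µg of total RNA per sample) was measured on 4 single-colour arrays, 2 per group. The authors deposited 1 linear intensity (signal) for each probe set. MAS5 is the tool that the submitters' processing notes name. The sources used here give neither its version nor its scaling target, and no detection calls. The table holds 12488 probe sets, 66 of them controls. The platform table gave 1 symbol for 10855, several for 396 and none for 1237, and 10839 of the single symbols matched a RefSeq gene (GRCm38.p6) by Entrez identifier.

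Arrays were scaled to one 2% trimmed mean, 60.6 (the 20th percentile of the mean signals) was added and log2 taken. Controls and probe sets below the 40th percentile, 142.9, were left out. limma 3.58.1 in R 4.3.3 (lmFit, eBayes with a mean-variance trend) compared the groups over 7458 probe sets, two-sided, with Benjamini-Hochberg adjustment and a threshold of 0.05. The number of arrays limits the precision: the fit had 2 residual degrees of freedom, and an exact permutation test of 2 against 2 cannot go below 0.333. With the variance shared across probe sets, the total was 11.63 degrees of freedom. The fit was tested on simulated data.

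The labels number the arrays 1 and 2 within each group but do not say that a number marks shared animals, so the fit without a block is reported. Members and gene lists were chosen with earlier results of these data known. Named genes were all member probe sets, list genes past the threshold and up to 3 genes per list by smallest p. Further genes named were the other tested probe sets of these, those nearest to 3 members, list genes too dim to test, and Mtf1. Alternatives covered scaling, pseudocount, filter, variance trend, replicate block and each array left out.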

Additional observations from a re-analysis of the deposited data

How the results depend on the processing

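Precision is limited by 2 arrays per group and, for dim probe sets, by signal near background. Over the 14 tested astrocyte probe sets and the alternatives fitted, 153 of 166 values kept their direction and their side of the threshold. Another 12 turned sign, all of them with 1 array left out, and the cause was not tested. The remaining value, Slc1a2 without deprived array 1, kept its direction at -1.41 but changed its side of the threshold. That fit leaves 1 deprived array, so its call is not read as a result. With 1 array left out, differences ran from -0.022 to 0.35 for Apoe 95356_at, -0.47 to 0.27 for Aqp4 102703_s_at, -0.24 to 0.18 for Aqp4 102704_at, -0.022 to 0.17 for Clu 95286_at, -0.18 to 0.26 for Gfap 94144_g_at, -0.013 to 0.31 for Gja1 100064_f_at, -0.37 to 0.082 for Gja1 100065_r_at, -0.20 to 0.064 for Glul 161826_r_at and -0.19 to 0.36 for Glul 94852_at. Slc1a2 stayed below 0 in each alternative, from -0.59 to -1.41. The number of astrocyte probe sets past the threshold was 0 or 1 with an array left out and 0 otherwise. The median over the astrocyte genes was 0.17 when probe sets of a gene were averaged, and 0.0001 to 0.18 with an array left out. Of 36 medians of companion lists under other scalings or with an array left out, 30 moved by less than the spread between pairs of arrays. The count of 8 probe sets past the threshold over the whole array became 1 after quantile normalization, 3 with a common median, 0 without the variance trend (390 at an unadjusted p under 0.05), 40 with the replicate block, 27 at an adjusted p of 0.2 and 5 to 90 with an array left out. The count of 142 at 1.5-fold in all pairs became 261 without a filter, 80 with the 40th percentile of signals as pseudocount, 60 with a filter at the 60th percentile, 263 in the same-numbered pairs alone, 639 or 30 at a fold of 1.2 or 2, and 434 to 902 with an array left out. The replicate block changed no call of an astrocyte probe set (Slc1a2 adjusted p = 0.21). Arrays with the same number deviated from their groups with a correlation of 0.27 across probe sets, and the labels do not say that the numbers pair the arrays. With an array left out, the lone array of its group is assumed to vary like the other group.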
